A study of Saccharomyces cerevisiae with 7 samples.

Results

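Budding yeast codes for most of its cytosolic ribosomal proteins in 2 gene copies, named A and B, and the course of both copies was followed here through meiosis in a strain labelled as deleted for CLB5 and CLB6. Members were the rows whose standard symbol is RPL (large subunit) or RPS (small subunit), then a number, then A or B, kept where both copies had a value in at least 5 of 7 libraries. This gave 51 pairs, or 102 of 6141 rows in the table, with 28 pairs of the large subunit and 23 of the small subunit. The libraries were 1 each at 1, 2, 3, 4, 5, 6 and 8 h of a meiotic time course, all of the strain labelled Clb5Delta-Clb6Delta, a deletion of both B-type cyclins of early S phase. Each value sets a gene's mRNA against its own 0 h mRNA in that strain, as a log2 ratio, both having been read against 1 pooled mRNA mix, so that -1 is 2-fold below the 0 h amount. The library titled 8 h carries a source name of 6 h, so its time is uncertain. It is called the last library here. No wild-type course was used here, and no time point had a replicate.

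Most of the duplicated ribosomal protein genes are leftovers of an ancient whole-genome duplication, and the copies of a pair code for the same or nearly the same protein. Most of their promoters are bound by Rap1, with Fhl1 and its coactivator Ifh1, and respond with Sfp1 to the TOR and protein kinase A pathways. The genes are thus turned down together when yeast is starved, as in sporulation medium. Copies are known to differ in their share of the protein made, and a few are known to be controlled by their own product. Because a value is a ratio to the same gene at 0 h, copy A minus copy B gives the change of the A to B ratio since 0 h and not which copy was more abundant. The part of each gene that its probe reads is not given in the sources used here, so how far the value of a copy also holds signal from its near-identical partner was not tested.

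Meiosis genes were high, which bears on the label: of 13 markers of meiosis and sporulation, the maximum over the course lay between 1.45 for IME1 and 10.55 for SPS2, a spore wall gene. CLB5 read between -0.51 and 1.40. CLB6 read between -0.53 and 1.27 and rose along a straight line over time (slope 0.28 ± 0.06 log2 units per h, limma adjusted p = 0.00526), although the label gives it as deleted. Since the 0 h baseline came from the mutant too, these ratios hold no level and do not check the deletions. The SD of all genes was 0.96 at 1 h and then 1.65 for the last library, and the library medians over all genes lay between -0.01 and 0.09.

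Nearly all copies were far below their 0 h amount from the first hour. At least 2-fold lower in every library with a value were 94 of 102 members, against 6.22% of all genes with 5 or more values. These were 52 of 56 large subunit members and 42 of 46 small subunit members. The members at least 2-fold lower numbered 99, 96, 97, 98, 97 and 97 at 1 to 6 h and 97 at the end, of 101 or 102 measured, against 12.1%, 12.3%, 13%, 15.7%, 18.2%, 19.3% and 20.5% of all genes. The members' median was -2.08, -2.70, -2.65, -2.98, -2.74 and -2.80 at 1, 2, 3, 4, 5 and 6 h and -2.57 in the last library. The lowest member by its mean was RPL2A, whose protein sits close to the peptidyl transferase centre. RPL2A stood at -2.90, -3.87, -3.90, -4.62, -4.31 and -4.54 at 1 to 6 h and then at -3.93 in the last library, a mean of -4.01 ± 0.58 (SD over 7 time points, not replicates). RPS16B, RPL27B, RPL7A and RPL2B were also among the lowest, with means between -3.69 and -3.45.

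The 8 members that were not 2-fold lower throughout were RPL43B, RPL31B, RPL33B, RPL40B, RPS9B, RPS28A, RPS28B and RPS30B. RPL43B and RPS28A were the 2 that stood above 0 h in any library. RPS28A stood at -0.73, -0.63, -0.68, -0.36, 0.27 and 0.16 at 1 to 6 h and then at -1.09 in the last library. Its partner RPS28B stood at -1.09, -1.08, -0.95, -0.90, -0.34, -0.05 and -0.47 in the same libraries. Rps28 lies at the mRNA exit of the small subunit and is known to promote decay of the RPS28B mRNA. This was the 1 pair in which neither copy was 2-fold lower throughout, and the copies were at most 0.63 apart.

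**Figure D1:**
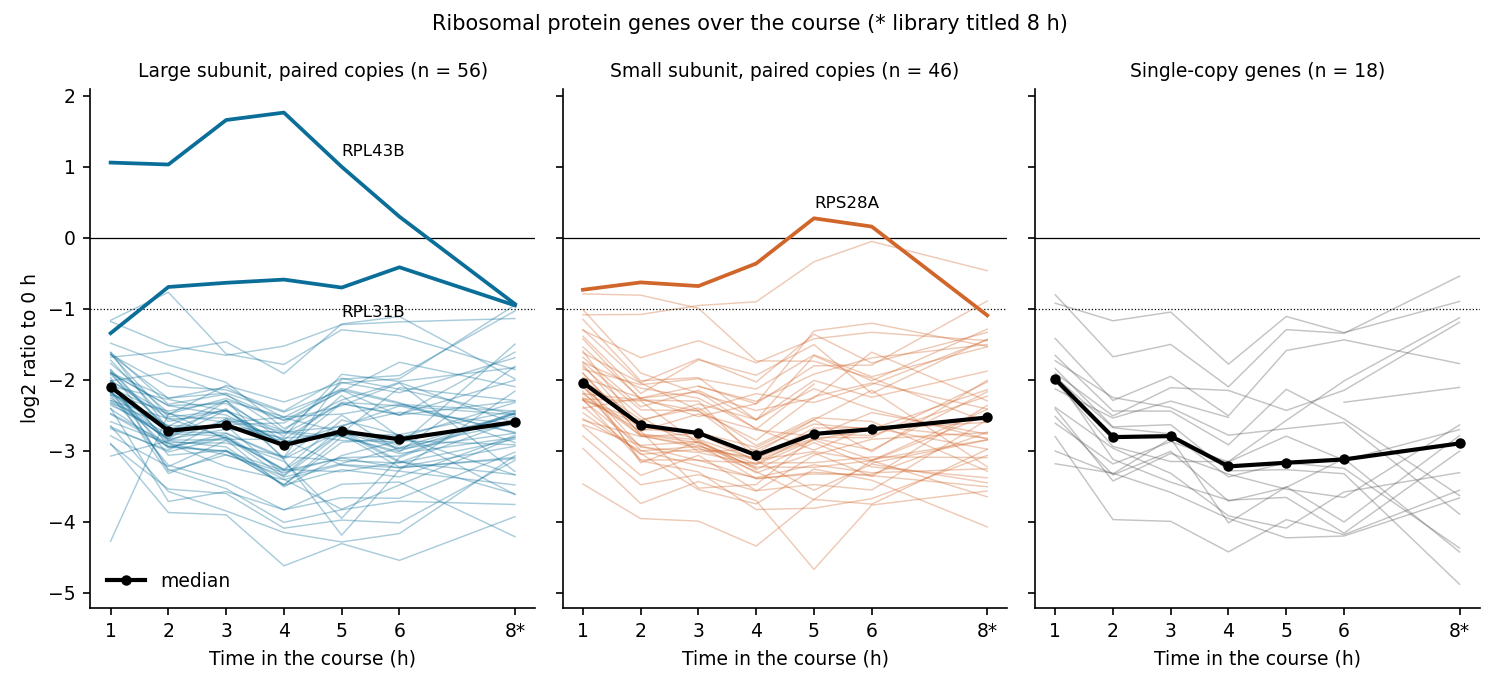
Each thin line is 1 gene, with time in hours on the x axis and the log2 ratio to 0 h on the y axis, for paired copies of the large subunit (left), paired copies of the small subunit (middle) and single-copy ribosomal protein genes (right); the black line is the median and the dotted line 2-fold below 0 h. The medians of the 3 panels run close together, and RPL43B, RPL31B and RPS28A lie above the bulk.

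Both copies of most pairs went down by 2 h and again by 4 h. From 1 to 2 h, 92 of 101 members went down, with a median change of -0.57, against 54.9% of all genes, whose median moved by -0.06. Little net change followed from 2 to 3 h (median 0.01), when the copies moved in opposite directions in 17 of 50 pairs. From 3 to 4 h, 91 of 102 members went down again (median -0.31), against 46.8% of all genes, and both copies went down in 42 of 51 pairs. At 5 h, 81 of 101 members had come up from 4 h (median 0.31), against 45.9% of all genes (median -0.04), and both copies had come up in 32 of 50 pairs. No share over combinations of copies of different pairs is given for these pair counts. They are therefore not read as copies of a pair moving together. Of the 99 members with a value in every library, 45 (45.5%) had their lowest value at 4 h, against 8.32% of 5349 genes. RPL7A and RPL2B reached -4.09 and -4.01 there.

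A straight line over the 7 libraries was fitted to every gene with limma. Of 99 members tested, 15 fell at a Benjamini-Hochberg adjusted p under 0.05, against 15.1% of all genes, and 0 rose, against 18% of all genes. The share that fell (15.2%) is thus that of the background. The median slope of the members was -0.04 log2 units per h. It turned to 0.14 when the libraries were given equal spread, where 2 members fell and 30 rose, and to 0.05 after quantile normalization, where 2 fell and 14 rose. The count that fell was also 5 without the 1 h library, 6 without the 2 h library, 6 without the 3 h library, 10 without the 5 h library and 8 without the 6 h library. By a spline of time, 52 of 99 members changed, against 61% of all genes. These p-values measure the scatter of successive samples of 1 culture around a curve.

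RPS9B, for a protein at the mRNA entry of the small subunit, fell along the line. RPS9B stood at -0.79, -0.81, -0.99, -1.73, -1.74 and -1.98 at 1 to 6 h and then at -2.60 in the last library, with a slope of -0.27 ± 0.04 per h (SE, limma adjusted p = 0.0014). Each library from 2 h on was below the one before it, and the call held in all 14 alternatives run, where the slope lay between -0.32 and -0.15 and the adjusted p between 0.00143 and 0.0184. RPS9A stood between -1.76 and -1.30, with a slope of 0.01 ± 0.04 (limma adjusted p = 0.878). RPL1B, RPL21A, RPS4A and RPS1B fell with slopes between -0.21 and -0.18 per h. Each of these 4 turned to a slope above 0 when the libraries were given equal spread, and after quantile normalization their limma adjusted p lay between 0.0731 and 0.173. RPL21A lost its call without the 1 h library (limma adjusted p = 0.0943) and without the last library (0.101), and RPS4A without the 2 h library (0.0519). RPL4A and RPL4B were the only pair in which both copies passed, with slopes of -0.17 ± 0.05 and -0.16 ± 0.05 per h (limma adjusted p = 0.0302 and 0.0256). Both calls were lost with equal spread and after quantile normalization, where the 2 members that fell were RPS9B and RPL43B. In 5 pairs copy A alone passed, in 8 pairs copy B alone, and in 35 of 49 neither did. By copy, 6 of 49 A copies (12.2%) and 9 of 50 B copies (18%) fell, against 15.1% of all genes. Shares of the pair counts over combinations of different pairs are not given, so these counts are not read as particular to pairs. The difference in slope between copies was not itself tested.

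The distance between copies of a pair was smaller than that between unrelated copies. The absolute difference between copy A and copy B, averaged over libraries, had a median of 0.44 over 51 pairs, between 0.09 for RPL4 and 3.01 for RPL43. For the 2550 combinations of a copy A with the copy B of another pair the median was 0.63. At least 2-fold apart in at least 1 library were 24 of 51 pairs (47.1%), against 63.8% of those combinations. That count was 15 without the last library. In every measured library it was 0 of 51, against 7.33% of the combinations. With 1 library per time point these are descriptions with no test. Copy A had the lower mean in 29 pairs, and over the libraries copy A was lower in 27 to 33 pairs. The median of copy A was -2.17 at 1 h and -3.03 at 4 h, and that of copy B -2.03 and -2.92. At 3 and 5 h copy A had the higher median, -2.63 and -2.68 against -2.66 and -2.77, and in the others the lower one. The median of the members' means was -2.58 for copy A and -2.69 for copy B. Taken pair by pair, the median of copy A minus copy B was below 0 in each library, between -0.21 and -0.04. This lean to a lower copy A is small and was not tested. Copy A minus copy B kept 1 sign in every measured library in 15 of 51 pairs (29.4%), against 47.1% of the combinations, and in 25 pairs without the last library. Of the 15, copy A was lower in 11 and higher in 4. The share of each direction over the combinations is not given. All libraries share the 0 h array, so the sign is not independent between them.

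**Figure D2:**
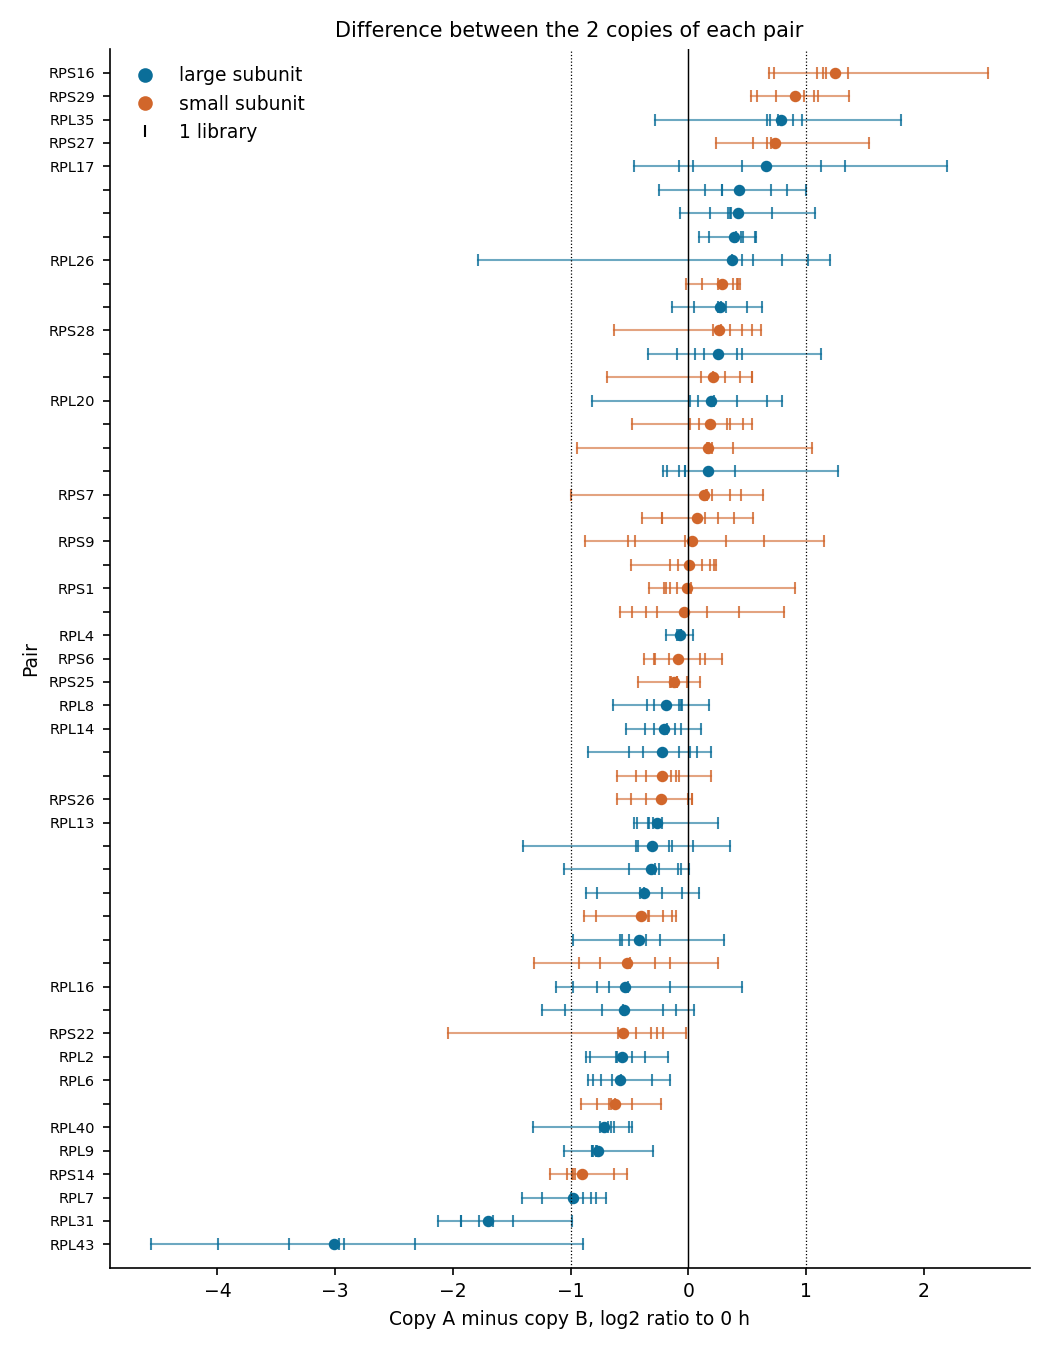
Copy A minus copy B in log2 ratio to 0 h for each of the 51 pairs, ordered by the mean and named where the text describes the pair; ticks are single libraries, the line is their range and the dot their mean, in blue for the large and in orange for the small subunit, with dotted lines at 2-fold. Most means lie within 1 log2 unit of 0, RPL43 and RPL31 lie below -1 and RPS16 above 1.

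In 3 pairs the mean difference exceeded 2-fold. RPL43 codes for a zinc-binding protein of the large subunit, and its copies were farthest apart. RPL43A behaved like most members and stood at -1.91, -2.36, -2.33, -2.80, -1.92 and -2.02 at 1 to 6 h and then at -1.83 in the last library. RPL43B stood at 1.06, 1.03, 1.66, 1.76, 1.00 and 0.30 and then at -0.93 in the same libraries, the 1 member at least 2-fold above 0 h in any library. Copy A minus copy B was -2.97 at 1 h, -4.56 at 4 h and then -0.90 for the last library, with a mean of -3.01 ± 1.19 (SD over 7 time points). Every RPL43A value was below every RPL43B value, and the difference of -2.97 was already present at 1 h. The gap then widened up to 4 h and narrowed after it. With the 1 h library as baseline these changes cancelled, and the mean difference was -0.05. RPL43B fell along the line (slope -0.28 ± 0.09 per h, limma adjusted p = 0.0424), but the call was lost in 8 of 14 alternatives, and without the last library the slope was -0.11 (limma adjusted p = 0.460). By the order of genes in the RefSeq table of assembly R64, RPL43B lies beside IME1, the master activator of meiosis, which stood at 0.76, 1.29, 1.30, 1.45, 0.99, 0.06 and -1.29 in the same libraries. SFC1, the neighbour on the other side, stood between -2.20 and -0.74. Whether the value read for RPL43B holds signal of a neighbour was not tested. RPL43A lies beside PUF2, which stayed between -0.08 and 0.33.

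RPL31 codes for a protein beside the exit of the nascent peptide tunnel. RPL31A stood at -2.33, -2.82, -2.30, -2.52, -2.48 and -2.35 at 1 to 6 h and then at -2.44 in the last library. RPL31B stood at -1.34, -0.69, -0.63, -0.59, -0.70, -0.42 and -0.95. Every RPL31A value was below every RPL31B value, by 0.99 at 1 h and by at least 1.49 later, and the mean difference was -1.70 ± 0.38 (SD over 7 time points), a 3.25-fold change of the A to B ratio since 0 h. About 1 log2 unit of it was present at 1 h, and the mean was -0.83 with the 1 h library as baseline. The spline found no change at the threshold in RPL31A (limma adjusted p = 0.939) or in RPL31B (0.0614). The measured neighbour of RPL31B, DUS4, stood between -1.42 and -0.20.

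RPS16 was the pair with the largest difference in the other direction. Its protein has a tail that reaches the transfer RNA in the decoding site. RPS16A stood at -2.28, -2.58, -2.34, -2.56, -2.13 and -2.41 at 1 to 6 h and then at -2.84 in the last library. RPS16B stood at -2.97, -3.74, -3.43, -3.70, -4.67, -3.76 and -3.57. Copy A was higher in each library, by 0.68 at 1 h and by 2.54 at 5 h, with a mean of 1.24 ± 0.62 (SD over 7 time points). The mean was 1.03 without the 5 h library. RPS16A lies beside RPL13B and RPS16B beside RPL13A in the gene order. RPL13A and RPL13B differed by -0.26 ± 0.24 on average (SD over 7 time points), with means of -3.01 and -2.75. By the mean RPL13B was the higher one, beside RPS16A, the higher copy of RPS16. In the last library RPL13B was the lower one, with copy A minus copy B of RPL13 at 0.25. Whether the place of these genes plays a part was not tested.

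A further set of pairs had a mean difference under 2-fold and 1 sign in each measured library. RPL7, RPS14, RPL9, RPL40, RPS29 and RPS27 passed 2-fold in 1 to 3 libraries, and RPS27 has no difference at 5 or 6 h. Copy A was lower in RPL7, RPS14, RPL9, RPL40, RPL6 and RPL2, among others, with mean differences of -0.98, -0.90, -0.77, -0.72, -0.59 and -0.56. With the 1 h library as baseline these were -0.09, -0.44, 0.01, -0.28, -0.32 and 0.36, so RPL9 and RPL2 turned in sign. Copy A was higher in RPS29 and RPS27, both for zinc-binding proteins of the small subunit, with mean differences of 0.91 and 0.74, or 0.39 and 0.63 with the 1 h baseline. RPL7A stood at -2.91 at 1 h, -4.09 at 4 h and then -3.13 for the last library, where RPL7B stood at -2.01, -3.26 and -2.43, and the 2 copies were 1.41 apart at 5 h. Rps14 is a protein of the small subunit platform that is known to repress RPS14B by binding its transcript. RPS14A stood at -2.38, -3.05, -2.98, -3.10, -2.82, -2.99 and -2.17, and RPS14B at -1.85, -2.07, -1.99, -2.13, -1.65, -1.96 and -1.54. RPS14A was below RPS14B in each library, by 0.53 at 1 h and by about 1 log2 unit from 2 to 6 h. RPL40 makes its protein as a fusion to ubiquitin, and RPL40B reached -0.77 at 2 h when RPL40A stood at -2.09. RPS29A stood between -2.43 and -1.44 and RPS29B between -3.69 and -2.20, and they were 1.37 apart at 5 h.

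The closest pair followed each other library by library. RPL4, whose protein reaches into the peptide tunnel, had copies within 0.19 in each library. RPL4A stood at -1.61, -2.34, -2.20, -2.73, -2.80, -3.04 and -2.81, and RPL4B at -1.65, -2.26, -2.10, -2.54, -2.74, -2.97 and -2.75. RPS25, RPS6, RPL14, RPL8, RPS26 and RPS1 also had close copies, with mean absolute differences between 0.15 and 0.27, but not in each library: RPS1 was 0.91 and RPL8 0.64 apart in the last one, and RPS26 0.61 apart at 5 h. RPS25A and RPS25B were also among the less reduced members, with means of -1.77 and -1.65. RPS6, the phosphorylated protein downstream of TOR, had means of -2.98 for copy A and -2.90 for copy B. In 6 of 51 pairs the copies stayed within 0.5 log2 units in each measured library, and in 30 pairs the mean absolute difference was under 0.5. The share of combinations of different pairs is given for neither count, so they are not read as particular to pairs.

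**Figure D3:**
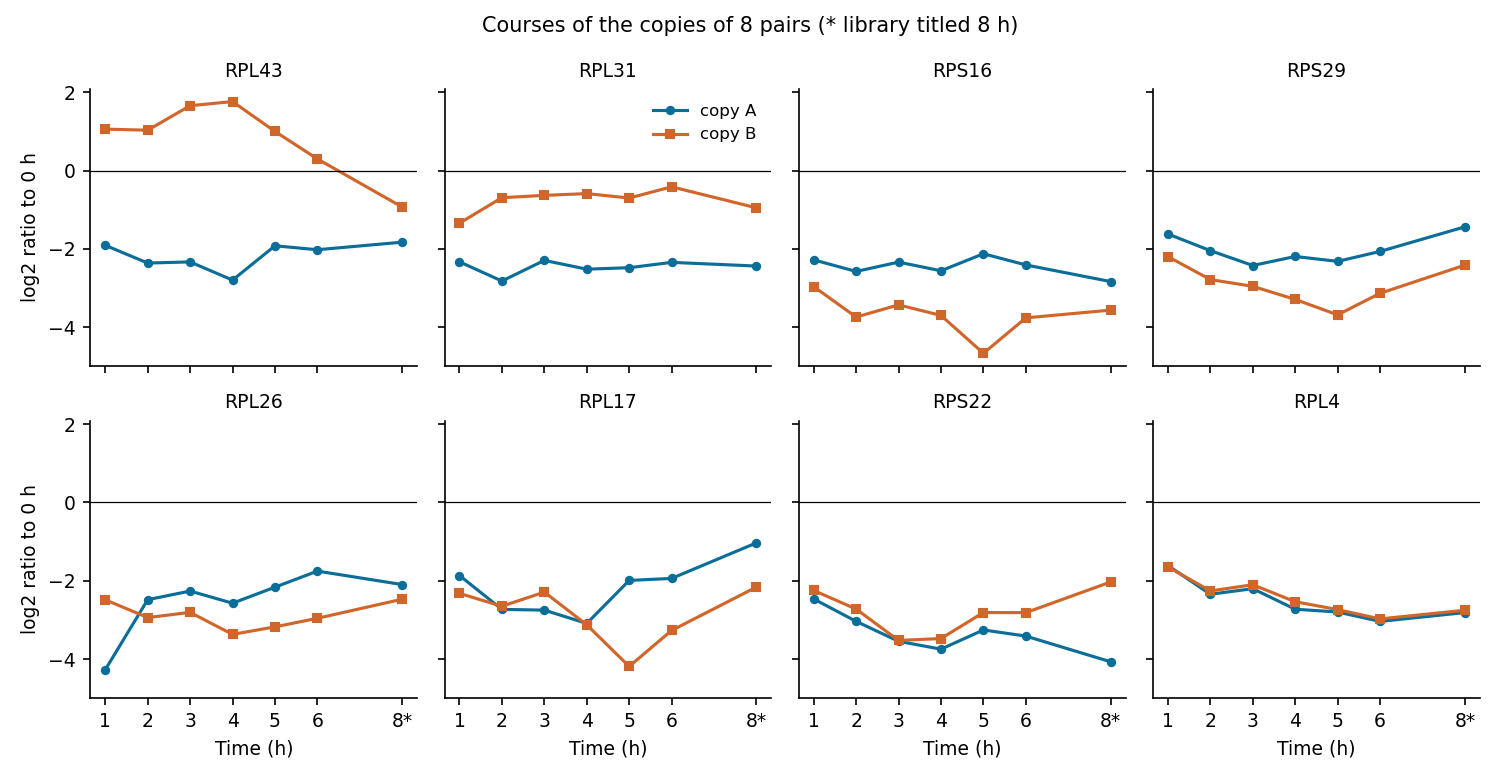
Log2 ratio to 0 h (y axis) against time in hours (x axis) for copy A (blue circles) and copy B (orange squares) of 8 pairs, 1 library per point and with no error bars since there were no replicates. RPL43, RPL31, RPS16 and RPS29 keep their order throughout, RPL26, RPL17 and RPS22 owe much of their range to 1 or 2 libraries, and the copies of RPL4 overlie each other.

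The widest swings of the A to B ratio within the course, a measure in which the 0 h array cancels, were those of RPL43, RPL26, RPL17, RPL35, RPS9 and RPS22. Several rested on 1 library. RPL26A stood at -4.27 at 1 h, the lowest of all members in that library, and between -2.57 and -1.75 in the others, while RPL26B stood between -3.37 and -2.47. Copy A minus copy B was -1.79 at 1 h and between 0.37 and 1.21 later, and its mean of 0.37 was 0.73 without the 1 h library. RPL17, for a protein that lines the peptide tunnel, had copies within 0.46 up to 4 h. RPL17B then stood at -4.19 at 5 h and RPL17A at -1.99, a difference of 2.20, and the pair was still 1.33 apart at 6 h and 1.13 apart in the last library. The mean of 0.66 was 0.40 without the 5 h library. RPL35B also had its lowest value at 5 h, -3.95, when RPL35A stood at -2.14, and so did RPS16B and RPS29B. In all, 9 of 99 members (9.09%), A copies among them, were lowest at 5 h, against 9.46% of all genes. RPS9A and RPS9B crossed, with a difference of -0.88 at 2 h and then 1.15 for the last library. RPS22A stood at -4.07 in the last library and RPS22B at -2.03, whereas they were within 0.60 of each other before. The mean difference of RPS22, -0.56, was -0.31 without that library.

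The last library was where copies of a pair parted most. The median absolute difference between copies was 0.37, 0.35, 0.37, 0.38, 0.46 and 0.48 at 1 to 6 h, then 0.70 for the last library. For combinations of different pairs it was 0.46, 0.52, 0.58, 0.58, 0.77 and 0.72 at 1 to 6 h and 0.74 in that library. By these medians, the copies of a pair were at 60.1% to 79.8% of the distance of unrelated copies up to 6 h. In the last library they were at 95.1% of it. There 12 of 51 pairs were at least 2-fold apart, against 37.1% of the combinations. When the libraries were given equal spread, the median between copies was 0.37 to 0.46 up to 6 h and 0.54 in the last library. After quantile normalization it was 0.31 to 0.47 and 0.71. The medians for combinations of different pairs are not given under either, so they do not bear on the 95.1%. The step from 6 h to the last library, titled 8 h, is by the titles longer than each earlier step. In it, the A to B ratio moved by at least 1 log2 unit in 11 of 50 pairs, against 0 to 4 pairs in each earlier step. The copies moved in opposite directions in 24 of 50, about as many as the 23 of 50 between 5 and 6 h. RPS7A moved by -1.08 and RPS7B by 0.55, RPL20A by 1.43 and RPL20B by -0.18, and RPL16A by 0.34 and RPL16B by -1.24. In 20 of 51 pairs the copies were farthest apart in this library. The shares of these counts over combinations of different pairs are not given, so the counts are not read as particular to pairs. Of all genes with every value, 29.8% had their lowest value in this library. The spread of the change was also larger for all genes in this step, with an SD of 0.68 against 0.38 to 0.55 in the earlier ones, and the labels of this library conflict. The part of the length of the step, of this spread or of the labels in the result was not tested.

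**Figure D4:**
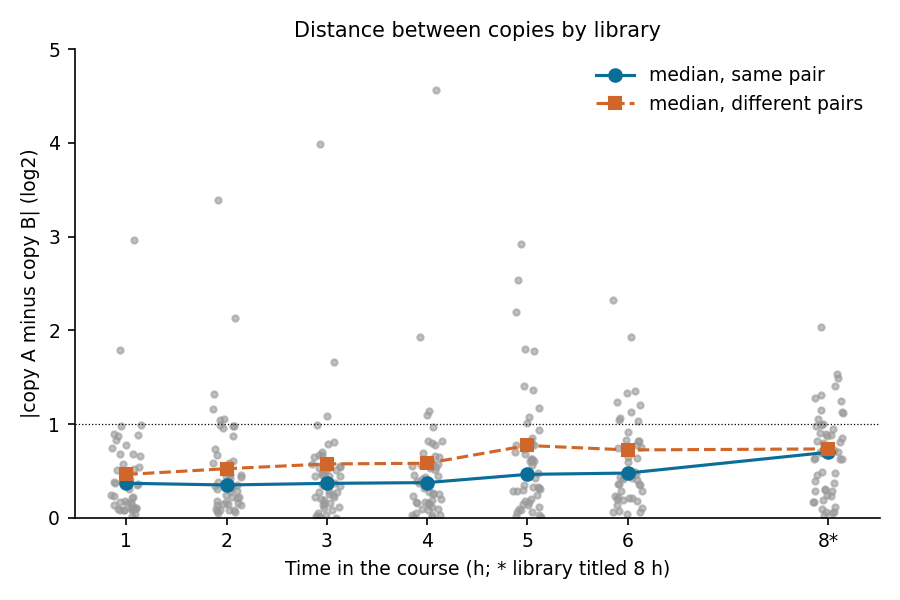
Absolute difference between copy A and copy B in log2 units (y axis) by library (x axis, hours); grey points are the pairs, the blue line is their median and the dashed orange line the median over combinations of different pairs. The lines lie apart up to 6 h and come close in the last library, at 0.70 and 0.74.

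The large and small subunit did not stand apart by their medians. The median of the large subunit members was -2.10, -2.72, -2.64, -2.92, -2.73 and -2.84 at 1 to 6 h, then -2.59 for the last library. That of the small subunit members was -2.04, -2.64, -2.75, -3.06, -2.76, -2.70 and -2.53. The difference, large minus small, changed sign over the course, lay between -0.14 and 0.14 and averaged -0.01 ± 0.11 (SD over 7 time points). It is small beside the quartiles of either subunit, which at 4 h were -3.34 and -2.67 for the large and -3.29 and -2.46 for the small subunit. By the line 8 of 56 large subunit members and 7 of 43 small subunit members fell, and by the spline 27 and 25 changed. In the large subunit, 16 of 28 pairs (57.1%) were at least 2-fold apart in at least 1 library. In the small subunit these were 8 of 23 (34.8%). Over combinations of different pairs, both subunits together, the share was 63.8%. Copy A had the lower mean in 18 of the 28 large subunit pairs and in 11 of the 23 small subunit pairs. The median over pairs of the mean absolute difference was 0.47 for the large and 0.42 for the small subunit. No test of the difference between subunits was made.

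Paired genes were a little less reduced than the single-copy ribosomal protein genes after 1 h. The median of the paired members minus that of the 18 single-copy genes with a value was -0.09 at 1 h, then 0.24 and 0.43 at 4 and 5 h, and 0.33 for the last library, with a mean of 0.21 ± 0.17 (SD over 7 time points). Of 17 single-copy genes tested 5 fell and 0 rose, against 15.1% and 18% of all genes, a small count that was not tested. How these calls fare with equal spread or quantile normalization is not given here. RPL3 stood at -1.84 at 1 h and then -4.88 for the last library (slope -0.37 ± 0.05 per h, limma adjusted p = 0.00144), and RPL10, RPL28, RPS31 and ASC1 fell as well. Copies whose partner lacked enough values were also low. RPL12A, RPL22A, RPL36A, RPL37A, RPL41A and RPS19A had means of -3.29, -2.33, -1.28, -2.22, -2.35 and -2.83. RPL37B and RPS19B, with 4 values each, lay just outside the rule and had means of -2.58 and -2.45, while RPS26A, RPS27A and RPS27B were just inside it with 6 values and means of -1.98, -2.15 and -2.95. RPL12B had no value in any library, and RPL22B, RPL36B and RPL41B were not analysed here.

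The genes that regulate ribosomal protein genes had medians between 0.00 and 0.64 over the libraries. Of 13 regulators tested with limma, 1 rose and 0 fell, against 18% and 15.1% of all genes, and 0 were 2-fold lower throughout, against 6.22%, so these counts are small and near the background. FHL1, the forkhead factor at these promoters, stood at 0.41, -0.40, 0.12, 0.28, 0.84 and 1.41 at 1 to 6 h and then at 3.02 in the last library (slope 0.41 ± 0.08 per h, limma adjusted p = 0.00529). RAP1 stood between 0.54 and 2.00 and changed by the spline (limma adjusted p = 0.00589). IFH1 stood between -0.21 and 0.64, SFP1 between 0.00 and 0.77, and CRF1, a corepressor that competes with Ifh1, between -0.77 and 0.11. HMO1, a high-mobility-group protein bound at many of these promoters, was the lowest of the list, between -1.66 and -0.94.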

How the data were processed

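Two-colour arrays were hybridised with Cy5-labelled cDNA of each time point and a Cy3-labelled mRNA pool made over the course, per the labels' protocols. The deposited values are log2 ratios of sample to mix set against the same ratio at 0 h by the authors, per the series design. The sources used here do not give the scanner, background correction, spot filter, normalization or spot intensities, so signal over background is unknown, and having 1 array for each time limits the precision.

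Of 6141 rows, between 5625 and 5810 had a value per library. Symbols and gene order came from RefSeq assembly R64, with 5655 rows matched by locus tag. The members, lists and tests were chosen with earlier results of these data known. Slopes per hour and a natural cubic spline (2 degrees of freedom) were fitted with limma 3.58.1 (lmFit, eBayes) in R 4.3.3 on the 5349 genes with all values, with Benjamini-Hochberg adjustment over all of them and a threshold of 0.05. "Rose", "fell" and "changed" are used of calls of the line and the spline. The line leaves 5 residual degrees of freedom. Differences between copies, subunits and lists have no test, and a fold of 2 was the rule of size.

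Pairs named were RPL2, RPL7, RPL16, RPL43, RPS14 and RPS28, the 12 largest mean differences of 1 sign, the 8 closest and the 6 widest in range, with the 6 highest, lowest and steepest members. RPS7, RPL20, RPL13 and the 8 members not 2-fold lower throughout were added after their values were seen. On simulated data for the line over time in 5349 genes, slopes of 0.3 and 0.6 per h were recovered in 61.2% and 93.9% of changed genes, with 8 false calls among 111, and slopes of 0.1 in none. Most members' slopes are of that last size. Tables and plots used Python 3.11.15, numpy 2.4.6, pandas 2.3.3 and matplotlib 3.10.9. Some of the pairs and members named by this rule are not reported here. No sequences were given, so identity between copies and promoter motifs were not examined.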

Additional observations from a re-analysis of the deposited data

How the results depend on the processing

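The alternatives were centring, the same spread or quantile normalization of libraries, the 1 h library as baseline, other missing-value rules (stricter for pairs, looser for the fits), single-copy genes added to each subunit, a 1.5-fold rule, robust eBayes, the rank of time, the library titled 8 h as 6 h, and leaving out each library. Leaving out the RPL43 pair was chosen after seeing the data and kept each count within 1.5 times. The median distance between copies (0.37 to 0.46), the count 2-fold lower throughout (87 to 98) and the subunit (-0.03 to 0.10) and single-copy (0.17 to 0.26) differences moved by less than 1.5 times (the count) or 1 SD (the others) under each alternative run for them. At 1.5-fold, 41 pairs were apart in at least 1 library, and over the libraries left out this count was 15 to 24 and the count of pairs with 1 sign 16 to 25. The count of members that fell was 2 with the same spread, 2 after quantile normalization and 5 to 17 over the libraries left out. The count that rose was 1 with centring, 30 with the same spread, 14 after quantile normalization, 2 with ranked time, 2 with the library titled 8 h as 6 h and 0 to 5 over the libraries left out. The spline count was 31 after quantile normalization and 26 to 54 over the libraries left out. The slope of RPL43B lost its call in 8 of 14 alternatives. With the same spread the slopes of RPL1B, RPL21A, RPS1B and RPS4A turned to 0.00521, 0.0462, 0.0473 and 0.0300 per h. The cause was not tested. Mean differences of named pairs moved by less than 1 SD over libraries in 253 cases and by more in 15, all with the 1 h library as baseline, where RPL2, RPL9, RPL14, RPL35, RPS6, RPS26 and RPS28 turned in sign, to 0.36, 0.01, 0.19, -0.12, 0.34, 0.16 and -0.11. No paired analysis was possible because each time point has 1 library and the labels give no replicate number.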

Other observations

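Genes for proteins that escort or modify single ribosomal proteins had medians between -0.62 and -0.22 over the libraries. Of 15 such genes tested with limma, 2 rose and 1 fell, against 18% and 15.1% of all genes, and 2 of the 17 with a value were 2-fold lower throughout, against 6.22%, so these counts are near the background. SYO1, which carries Rpl5 and Rpl11 into the nucleus, stood at -1.50, -1.47, -0.86, -0.58, -0.63 and -0.29 at 1 to 6 h and at 0.62 in the library titled 8 h (slope 0.29 ± 0.04 per h, limma adjusted p = 0.00119). YAR1, the chaperone of Rps3, also rose (slope 0.14 ± 0.05, limma adjusted p = 0.0374), and RKM3, a lysine methyltransferase of Rpl42, fell (slope -0.18 ± 0.05, 0.0184). RKM1, a lysine methyltransferase of other ribosomal proteins, stood between 1.00 and 1.94. In the gene order SYO1 lies beside RPS29B, whose values lay between -3.69 and -2.20.

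The acidic stalk proteins, which recruit elongation factors, have an A and a B gene each but are not copies of 1 protein. RPP1A, RPP1B, RPP2A and RPP2B had means of -2.83, -2.90, -1.77 and -3.12, and RPP1B fell (slope -0.15 ± 0.05 per h, limma adjusted p = 0.0372). Among neighbouring members, RPS9B and RPL21A had means of -1.52 and -3.40, and RPS14B and RPS22A of -1.88 and -3.36.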
